A study of Homo sapiens with 18 samples.

Results

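The cyclin-dependent kinase (CDK) inhibitors of the CIP/KIP and INK4 families were examined as 7 named genes: CDKN1A, CDKN1B, CDKN1C, CDKN2A, CDKN2B, CDKN2C and CDKN2D. They were taken by symbol from the 22336 genes of the mRNA-seq table, and all 7 had an annotated start site in hg19. Around those start sites, within 50 kb, there were 7 open enhancers (of 11980 in the series), 16 closed ones (of 82547), 21 of the 40995 ATAC-seq peaks of TSA-treated cells and 24 of the 38813 peaks of vehicle-treated cells. CDKN2A and CDKN2B are neighbours on chromosome 9 and share 3 of these enhancers, so the 23 enhancers are fewer than the sum over genes.

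Both families hold back the cell cycle. The CIP/KIP proteins p21 (CDKN1A), p27 (CDKN1B) and p57 (CDKN1C) bind complexes of cyclins with CDK2 and related kinases, while the INK4 proteins p16 (CDKN2A), p15 (CDKN2B), p18 (CDKN2C) and p19 (CDKN2D) bind CDK4 and CDK6 and keep D-type cyclins from activating them. Without these kinases RB1 stays unphosphorylated and holds E2F factors inactive. CDKN2A also encodes ARF from a start site of its own, a protein that binds MDM2 and so stabilises p53. CDKN1A is a textbook target gene of p53 and a gene known to respond to histone deacetylase inhibitors.

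Of 18 libraries, all but the STARR-seq input came from LNCaP, a human prostate adenocarcinoma line. Cells were kept without phenol red in serum stripped of steroid hormones before TSA or vehicle and after transfection. Whether the untreated mRNA-seq cultures were kept in this way is not stated. The input library was read from plasmids that carry commercial human genomic DNA. TSA (trichostatin A, an inhibitor of histone deacetylases) was given at 100 ng/ml for 24 h, and vehicle cells received DMSO for 24 h. ATAC-seq, which cuts accessible DNA with a transposase, and mRNA-seq were each made from 3 TSA and 3 vehicle cultures, with 3 untreated cultures for mRNA-seq. Whole-genome STARR-seq places random genomic fragments in a reporter plasmid where an active fragment transcribes itself, and compared 2 output libraries, harvested 72 h after transfection, with 1 input library, with no TSA given.

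The values used here were pooled over the libraries of a condition or averaged over libraries. No value per library was used, so the comparisons below have no replicate error and carry no test, and the depth per library is unknown. Genes are compared by a level, the authors' average in log2 CPM (reads of a gene relative to its library) less log2 of the exon length in kb. Of the prostate luminal markers, KLK3 at 6.84, FOLH1 at 9.09 and KRT18 at 6.99 were above the median of all genes, 1.50. Of the markers of other cell types, TP63 at -4.60, DCN at -5.63, PTPRC at -4.78 and CHGA at -2.74 were low, while KRT5 of the basal list stood at 5.07, ENO2 of the neuroendocrine list at 5.34 and COL1A1 of the fibroblast list at 4.20. What those 3 contribute to the levels of the CDK inhibitors was not tested.

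CDKN1A carried the most active STARR-seq enhancers of the family. Sequences from the upper 2 are shown because each holds a pair of p53 half-sites. A half-site is 3 purines, C, a pair of A or T bases, G and 3 pyrimidines. Capitals mark pairs with intact C to G cores and at most 2 mismatches over 20 bases. The first sequence is chr6:36634969-36635118 in hg19, between genes, and the second is chr6:36644176-36644245, which ends with its pair at the upstream start sites of CDKN1A. The first spans its enhancer's summit, while the second stops just short of its own, at position 36644251. Both are given on the plus strand.
CDKN1A, 9.19 kb upstream: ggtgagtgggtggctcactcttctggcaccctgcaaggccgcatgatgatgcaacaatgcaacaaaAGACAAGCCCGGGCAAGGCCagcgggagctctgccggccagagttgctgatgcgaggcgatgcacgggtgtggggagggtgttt
CDKN1A, upstream start sites: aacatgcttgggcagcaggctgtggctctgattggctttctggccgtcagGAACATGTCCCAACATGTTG

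The pair in the first sequence had 1 mismatch and its centre lay 1 base from the enhancer's summit. The pair in the second had 2 mismatches and lay 15 bases before the summit. Another CDKN1A enhancer held a pair with 2 mismatches and 11 bases between its half-sites, 101 bases from the summit. Those were the 3 enhancers with a pair among the 23 near the 7 genes. Of all closed enhancers 9.11% held such a pair, and 1.61% held one within 20 bases of the summit. Of the 852 closed enhancers above 10-fold, 63.3% held a pair and 26.8% held one within 20 bases of the summit. The upper CDKN1A enhancers were 1814 and 900 bases wide, where the median closed enhancer was 528. A wider enhancer has more room for a match, and the shares over whole enhancers were not adjusted for width. Without any mismatch, none of the 23 enhancers held a pair, against 0.770% of all closed and 0.334% of all open enhancers. The allowance of 2 mismatches was added after the data had been examined, and with the p53 site upstream of CDKN1A known to depart from the consensus. A match in sequence is a description of the letters, and binding was not measured.

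The promoters of CDKN1A and CDKN2B are shown because their start sites were the lowest and the highest of the family in ATAC-seq score. They are RefSeq sequences of GRCh38.p14, the 150 bases before the start on the strand of the gene, at chr6:36678564-36678713 and chr9:22009306-22009455. Capitals mark GGGCGG or its reverse complement CCGCCC, the core of Sp1 sites.
CDKN1A promoter: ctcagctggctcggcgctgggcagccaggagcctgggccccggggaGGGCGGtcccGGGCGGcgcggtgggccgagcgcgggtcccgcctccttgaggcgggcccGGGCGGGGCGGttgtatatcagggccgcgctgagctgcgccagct
CDKN2B promoter: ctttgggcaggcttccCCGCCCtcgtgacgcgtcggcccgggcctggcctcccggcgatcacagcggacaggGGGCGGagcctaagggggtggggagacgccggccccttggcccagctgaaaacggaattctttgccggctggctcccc

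RefSeq promoters of 300 bases were matched for 6 of the 7 genes, with no entry used for CDKN1C. CDKN1A had 4 copies of GGGCGG, the last pair overlapping by 1 base, and CDKN2B had 2. CDKN1B had 1 copy, CDKN2D had 3, and the 2 CDKN2A promoters had 2 and 0. Of the 3 CDKN2C promoters, 1 held 6 copies and the others held 0 and 1. Among 35116 promoters 45% held at least 1 copy, 9.06% held 4 or more and 2.86% held 6 or more.

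Among CIP/KIP genes, CDKN1A stood far above the others in enhancer activity. Its closed enhancer at chr6:36643765-36645578 was enriched 36.6-fold over input (exact Poisson 95% interval 33.9 to 39.3), with 710 fragments of output at the summit, where 18.5 were expected from the scaled input. It covers the upstream start sites of the gene, and its centre lies 1.83 kb before the last start site. The closed enhancer at chr6:36634601-36635500, 9.19 kb upstream, was enriched 28.9-fold (26.4 to 31.5), with 501 output fragments against 16.4. They ranked 26 and 65 of the 82547 closed enhancers. The 2 intervals did not overlap, but they cover counting error of the output only. Counting error of the single input library is left out.

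The open enhancer of CDKN1A, at chr6:36650077-36650925, lies in an exon of the gene 4.003 kb past the last start site and was enriched 10.4-fold (9.16 to 11.8). It had 248 output fragments against 22.9 and ranked 177 of 11980 open enhancers. Its DNase I score was 0.0484, with 21.1% of open enhancers at or below it. The remaining CDKN1A enhancers were closed and weak, at 3.32-fold (2.59 to 4.19) 37.3 kb upstream and 2.17-fold (1.68 to 2.76) 35.5 kb downstream. Enhancers above 10-fold made up 1.03% of the closed and 1.64% of the open list, and 2 of the 16 closed and 1 of the 7 open enhancers near these genes were above it, all at CDKN1A. By its strongest enhancer CDKN1A ranked 16 of 20786 genes, while the other 6 inhibitors ranked between 5880 (CDKN2D) and 17538 (CDKN2C).

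CDKN1B, which encodes p27, had 3 closed enhancers and no open one. The strongest, at chr12:12902305-12903122 in an intron of APOLD1 and 32.0 kb downstream, was enriched 4.84-fold (3.67 to 6.27, 55 output fragments against 10.6). The others stood at 2.99-fold (2.20 to 3.96) and 2.02-fold (1.33 to 2.94). The 3 intervals lie below every interval of the stronger 3 CDKN1A enhancers.

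CDKN1C, the imprinted gene of p57, had 4 open enhancers and 1 closed one, all below 3.2-fold. The strongest open enhancer lay in an intron of KCNQ1 46.2 kb downstream (chr11:2860539-2861061) at 3.17-fold (2.60 to 3.84, 104 output fragments against 32.1). The one nearest its start, 6.03 kb upstream at chr11:2912790-2913288, reached 2.00-fold (1.56 to 2.52). The closed enhancer at chr11:2895832-2896311 reached 1.95-fold (1.50 to 2.48). DNase I scores of the 4 open enhancers ran from 0.669 to 0.965, all at or above the 92.8th percentile of open enhancers, against 0.0484 at the CDKN1A enhancer.

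**Figure D1:**
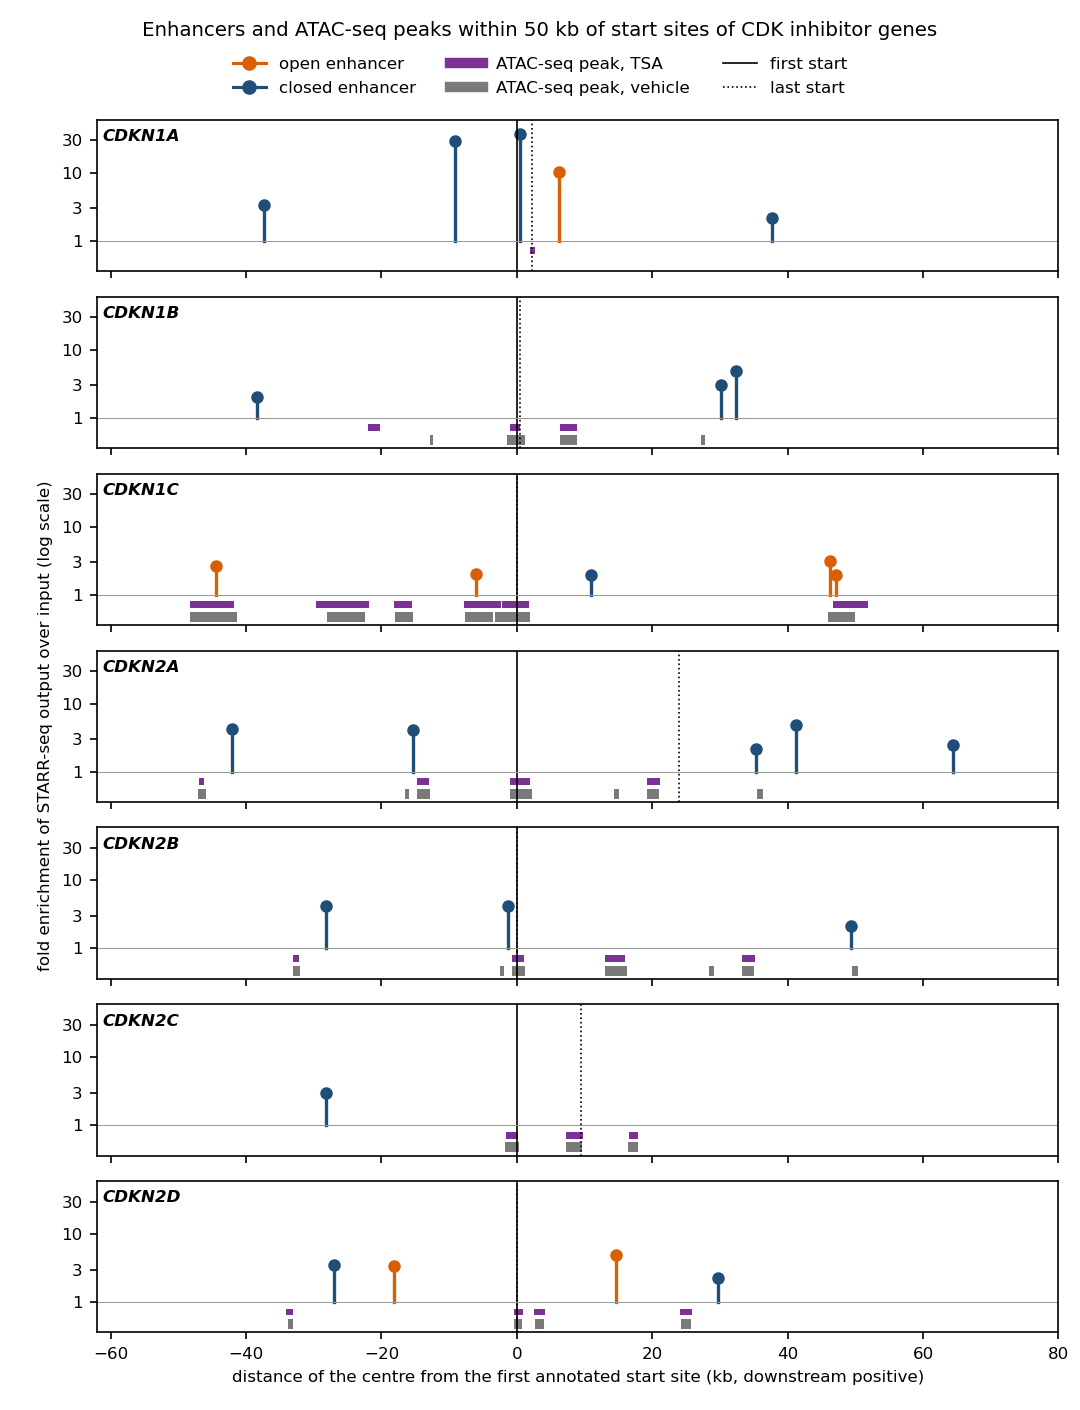
Enhancers and ATAC-seq peaks near the 7 genes. Each panel gives distance from the first annotated start site in kb, drawn in the direction of transcription, with enhancer fold enrichment over input on a log axis (stems) and the extent of ATAC-seq peaks in TSA and vehicle cells (bars under the axis). Stems above 10-fold appear only in the CDKN1A panel, which has 1 TSA peak and no vehicle peak.

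The INK4 genes had enhancers of moderate activity, none above 5-fold. At the CDKN2A and CDKN2B locus all 5 enhancers were closed. The strongest was chr9:21953716-21954319, 17.3 kb downstream of the nearest CDKN2A start, at 4.89-fold (3.60 to 6.51) with 45 output fragments against 8.40. An enhancer 1.33 kb upstream of the CDKN2B start, in an intron of the antisense gene CDKN2B-AS1 (chr9:22010378-22010887), was enriched 4.14-fold (3.03 to 5.52). Another in an exon of CDKN2B-AS1 was enriched 4.15-fold (2.97 to 5.66). Its scaled input was the same 8.40 as at the strongest enhancer, and 8.40 also recurred at MDM2 enhancers on chromosome 12. Whether this value is input read at these places was not tested. The lowest 2 of the locus were at 2.44-fold and 2.15-fold.

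CDKN2C had 1 enhancer within 50 kb, closed and in an intron of FAF1 (chr1:51397858-51398489), at 3.03-fold (2.33 to 3.87). CDKN2D had 2 open and 2 closed enhancers. Its strongest open enhancer, in an intron of KRI1 14.6 kb downstream (chr19:10664660-10665444), was enriched 4.93-fold (4.15 to 5.82) with 139 output fragments against 27.4. Its strongest closed one, 27.1 kb upstream (chr19:10706586-10707065), was enriched 3.51-fold (2.57 to 4.68). The open enhancer at the AP1M2 promoter was at 3.39-fold and the other closed one at 2.30-fold.

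Counted over genes, 3 of the 7 inhibitors (CDKN1A, CDKN1C and CDKN2D) had an open enhancer within 50 kb, where 56.6% of all genes did. All 7 had a closed one, where 90.5% of all genes did. The median inhibitor had 0 open and 3 closed enhancers, against 1 and 3 for all genes. Median enrichment was 3.17-fold over the 23 enhancers and 3.08-fold over all.

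**Figure D2:**
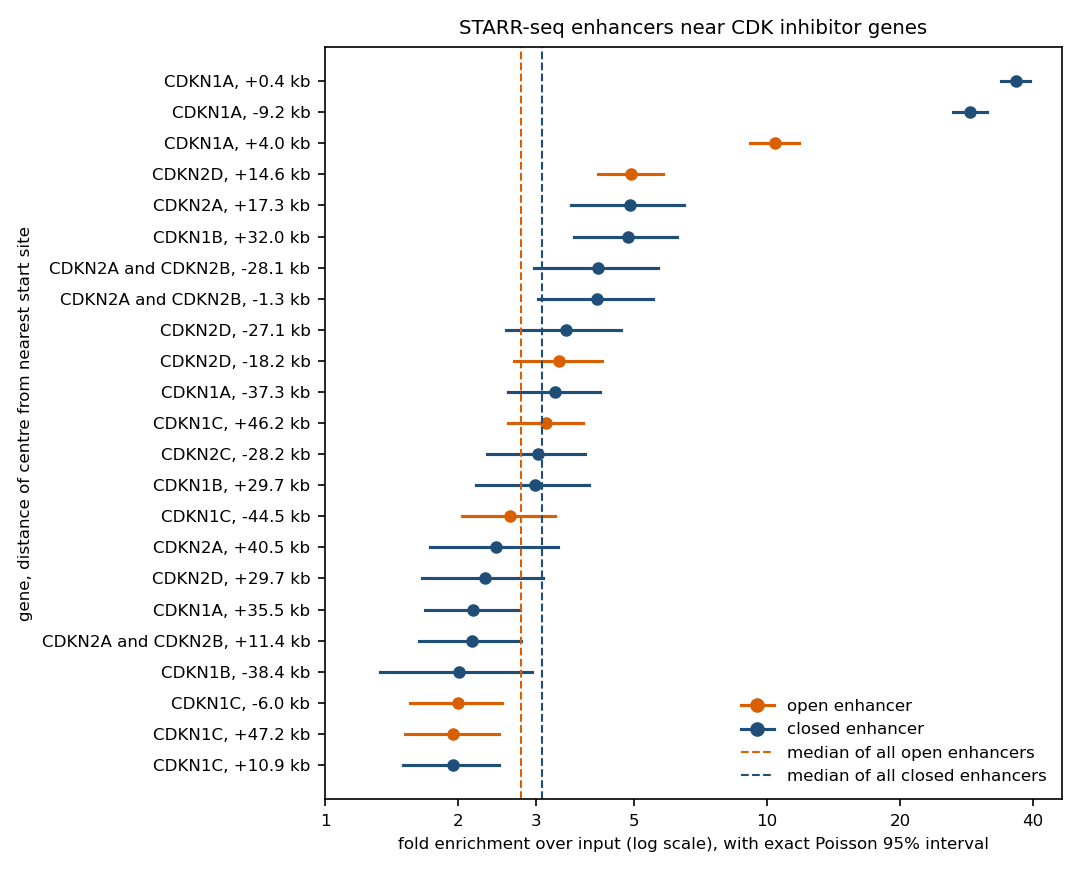
Fold enrichment of the 23 enhancers on a log axis, with exact Poisson 95% intervals of the output fragments (counting error only), beside the medians of all open and all closed enhancers. The CDKN1A enhancers at 36.6, 28.9 and 10.4-fold stand to the right of all other intervals.

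ATAC-seq peak lists of the 2 conditions were compared to see which start sites were accessible with and without TSA. A peak overlapped the promoter, from 1000 bases before to 100 bases after a start site, of all 7 genes in the TSA list and of 6 of 7 in the vehicle list. Over all genes the shares were 60.3% and 56%. CDKN1A was the gene that differed. Its peak at chr6:36646121-36646969, over the last start site, had a score of 0.0491 in TSA cells, and no peak within 50 kb of the gene was in the vehicle list. The lowest score in the vehicle list was 0.0390, so a peak below that is not listed, and the lowest in the TSA list was 0.0377. A start-site peak in the TSA list alone was found for 5.72% of all genes and in the vehicle list alone for 1.33%. Of the 7 inhibitors it was 1 and 0. Genes with a TSA peak but no vehicle peak within 50 kb made up 5.23% of all. The score of 0.0491 was at the 34th percentile of the TSA list, and the median of peaks found in that list alone was 0.0451. The merged site at this start averaged 3.85 log2 CPM over the authors' libraries (4.09 per kb, at the 81.4th percentile of sites). No enhancer of CDKN1A lay in a listed peak of either condition.

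At the other CIP/KIP starts both lists held a peak. The CDKN1C start had a score of 0.104 in TSA cells, against 0.0628 in vehicle cells, a ratio of 1.66 that 93.5% of the 27561 shared peaks fell below. The median ratio of all shared peaks was 1.07, with 0.602 and 1.74 as the 5th and 95th percentiles. The CDKN1B start had 0.106 in TSA cells and 0.109 in vehicle cells, a ratio of 0.974. The 2 genes lay on opposite sides of the median ratio.

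At the INK4 starts the scores ran from 0.0642 to 0.311 in TSA cells and from 0.0789 to 0.290 in vehicle cells. The CDKN2B start was the highest of the family in both lists, with 0.311 in TSA cells and 0.290 in vehicle cells (ratio 1.07). Its merged site averaged 6.35 log2 CPM, or 5.44 per kb, at the 99.2nd percentile of sites. The p16 start of CDKN2A had 0.114 in TSA cells and 0.0944 in vehicle cells (1.20), and its ARF start had 0.133 and 0.103 (1.29). The ARF peak also covers the start of CDKN2B-AS1. The CDKN2D start had 0.128 in TSA cells and 0.0957 in vehicle cells (1.34). CDKN2C had a higher score at its upstream start in TSA cells, 0.150 against 0.121 in vehicle cells (1.24), but a lower one at its downstream start, 0.0642 against 0.0789 (0.813). The upstream peak also covers an exon of FAF1. Its centre lay nearer to the FAF1 start (0.207 kb) than to the CDKN2C start (0.685 kb).

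Over all 19 peaks near these genes that both lists held, the ratio ran from 0.794 to 1.66 with a median of 1.15, and 12 were above 1.07. The 2 lists together held 26 peaks near these genes. Of the 21 TSA peaks, 2 were in the TSA list alone, where 32.8% of all TSA peaks were. Of the 24 vehicle peaks, 5 were in the vehicle list alone, where 28.8% of all vehicle peaks were. Besides the CDKN1A start, the TSA list alone held a peak at the GPR19 promoter, 21.1 kb upstream of CDKN1B, with a score of 0.0419. The vehicle list alone held 2 peaks near CDKN1B, at 0.0404 (12.6 kb upstream) and 0.0456 (27.0 kb downstream). The other 3 were at the CDKN2A and CDKN2B locus, at 0.0414, 0.0484 and 0.0495, the last lying 2.23 kb upstream of the CDKN2B start. All 7 scores were under 0.05, near the lower limit of their lists.

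**Figure D3:**
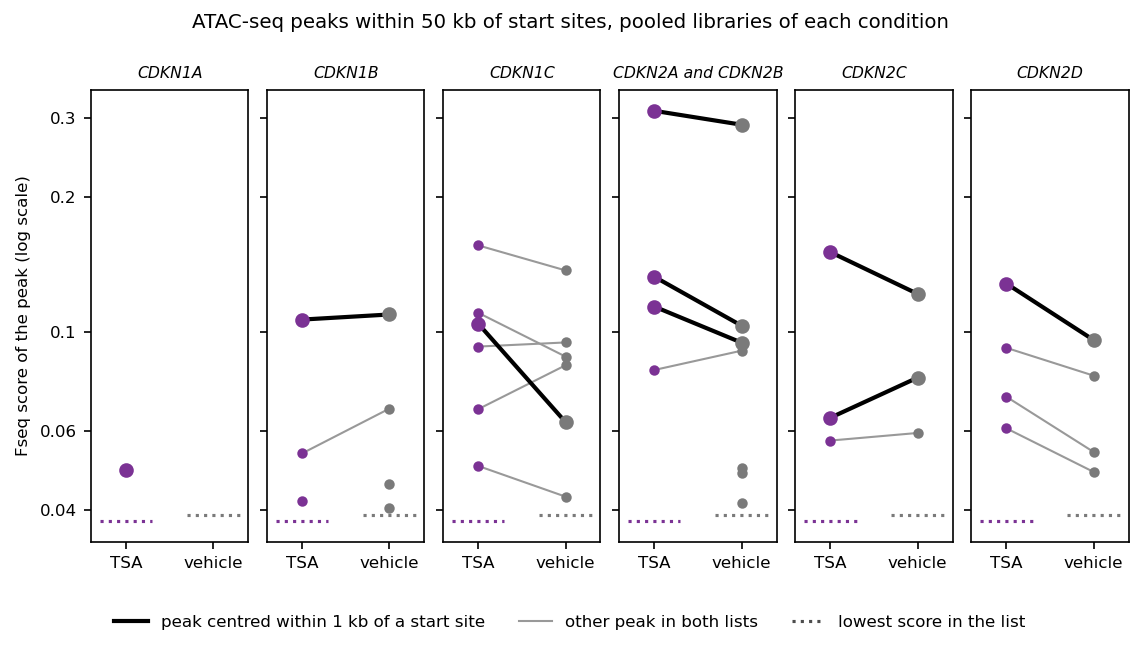
Scores of the ATAC-seq peaks within 50 kb, on a log axis, with TSA at the left and vehicle at the right of each panel. Lines join peaks found in both lists, thick lines mark peaks centred within 1 kb of a start site, and dotted lines mark the lowest score in each list (0.0377 in TSA and 0.0390 in vehicle). The CDKN1A panel holds 1 TSA peak at 0.0491 and no vehicle peak.

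Enhancers were then set against the peak lists. None of the 16 closed enhancers lay in a TSA peak and 1 lay in a vehicle peak, chr9:21959610-21960214 at 2.15-fold, where 2.65% and 1.68% of all closed enhancers did. Of the 7 open enhancers 3 lay in a TSA peak and 4 in a vehicle peak, all near CDKN1C, where 42.4% and 37.8% of all open enhancers did. With so few enhancers these counts are not set apart from the shares of all enhancers.

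Which cultures the authors' average covers, and whether the untreated ones are among them, is not stated, so the levels below describe no single condition. In mRNA level CDKN1A was the highest inhibitor, with 6.31 log2 CPM per kb (7.61 log2 CPM), above 96.3% of genes. CDKN1B followed at 3.78 (76.9th percentile), then CDKN2C at 2.92 (65.9th) and CDKN2D at 2.57 (61.5th). CDKN2A stood at 1.50, the median of all genes, and CDKN2B at 1.11 and CDKN1C at 1.10 were the lowest. With no spread between libraries the order of CDKN2B and CDKN1C is not resolved, nor can any step in this order be set against an error. The CDKN2A value sums the p16 and ARF transcripts, and per kb of its longest transcript it was 2.86 (63.6th percentile). Reads of CDKN2B and CDKN2B-AS1 overlap in position and strand use in counting is not given in the sources used here, so the CDKN2B level is uncertain. How TSA changed these levels is not reported here, because the values used average over libraries.

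The genes that the inhibitors act on or with form a list of 25, whose median level was 3.18 log2 CPM per kb, against 2.57 for the 7 inhibitors and 1.50 for all genes. CDK4, the kinase bound by INK4 proteins, was the highest at 6.29, beside PCNA, which p21 also binds, at 5.59, the mitotic kinase CDK1 at 5.53 and cyclin D1 (CCND1) at 5.42. CDK6, the other INK4 target, was the lowest at -0.72, with E2F2 at -0.60 and cyclin D2 (CCND2) at -0.43. CDK4 stood beside CDKN1A, at 6.31, while CDK6 was below the lower inhibitors.

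Of the 25 genes, 24 had a start-site peak in the TSA list and 23 in the vehicle list, where 60.3% and 56% of all genes did. CCND3, a D-type cyclin, was the one with a peak in the TSA list alone, and E2F2 had none in either. An open enhancer lay near 17 of the 25 and a closed one near 22, where 56.6% and 90.5% of all genes had one. CDK4 had the most open enhancers, 5, the strongest at 2.94-fold, and CCND3 the most closed, 8, the strongest at 4.51-fold. Only MDM2 of this list had enhancers above 10-fold, and it is named after its values were seen. MDM2, another p53 target, had an open enhancer at its start at 27.4-fold (24.3 to 30.9) and a closed one 26.6 kb upstream at 15.01-fold (12.9 to 17.4). Neither held a p53 pair with 2 or fewer mismatches by the search used for CDKN1A. That search required intact C to G cores in both half-sites, so it cannot find sites with an altered core.

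**Figure D4:**
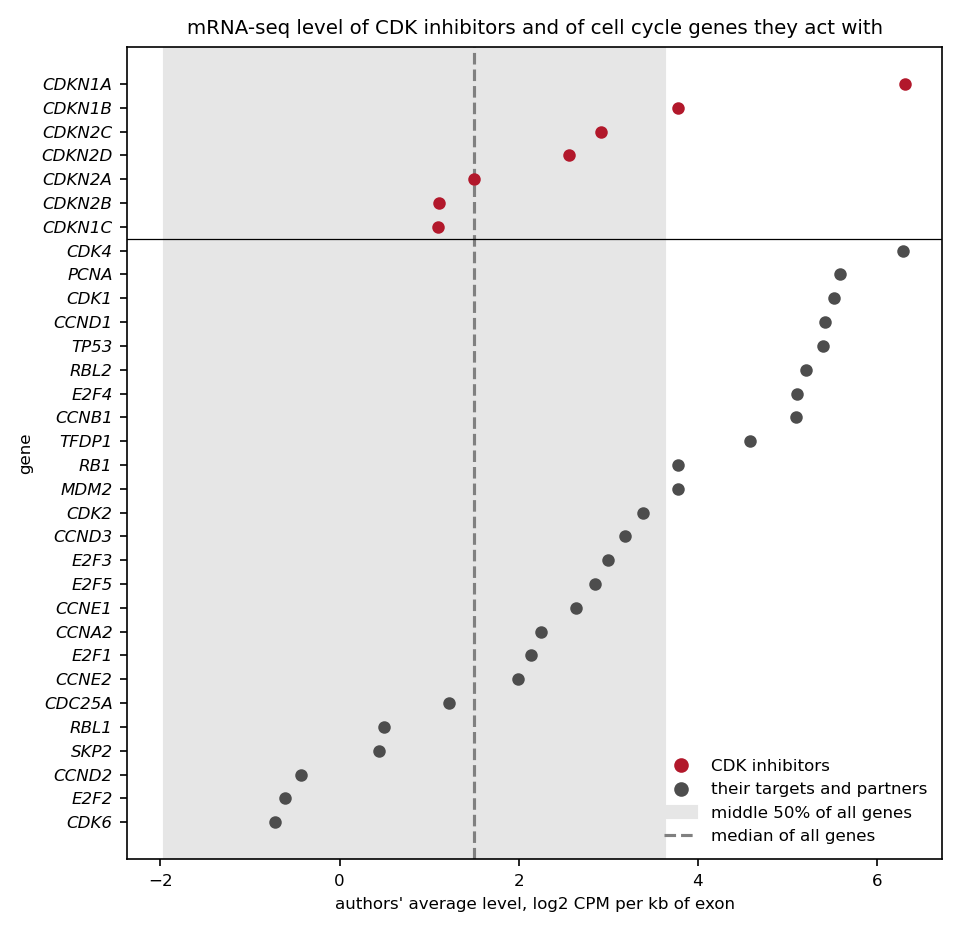
Average mRNA-seq level, in log2 CPM per kb of exon, of the 7 inhibitors (upper rows) and the 25 genes they act with (lower rows), against the median (dashed, 1.50) and middle 50% of all genes (band). CDKN1A at 6.31 and CDK4 at 6.29 are the highest of their groups.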

How the data were processed

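The 18 libraries were grouped by their labels, and whether the untreated mRNA-seq cultures are part of the authors' average level is not stated. The 7 genes and all lists were chosen with earlier results of these data known. Reads were mapped to hg19 by the authors, STARR-seq using Bowtie, ATAC-seq using Bowtie followed by cutadapt and Bowtie2, and mRNA-seq using TopHat. Duplicates of STARR-seq and ATAC-seq were collapsed with Picard. Tool versions were not stated in the sources used here. The authors pooled STARR-seq outputs and called enhancers with MACS2, so the deposited fold is a ratio of output over input, with −log10 p-values and q-values; open enhancers carry the DNase I score the authors deposited. ATAC-seq peaks carry the authors' Fseq score from 3 pooled libraries per condition. The tables of genes and merged sites hold an average in log2 CPM made by the authors with edgeR, and also fold changes, likelihood ratios, p-values and q-values of the authors' comparison of TSA with vehicle, which were not used.

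Exon lengths and 57798 start sites came from the basic set of GENCODE for GRCh37, for 20786 genes, and distances are from the centre of a region to the nearest start. Peaks were shared with 1 or more common bases. Output fragments were recovered from fold and p-value as (fragments + 1) over (scaled input + 1), with a largest departure from whole numbers of 0.041 over all enhancers. The inversion was checked on 1999 counts simulated with the same formula (100% recovered). That check cannot show whether the deposited values follow the formula. Intervals are exact Poisson at 95% on the output fragments, with the scaled input held fixed. They cover counting error of the output only, since fragments from PCR are not independent molecules. Motifs were searched on both strands: p53 half-site pairs (up to 13 bases apart), AP-1 (TGANTCA), Sp1 (GGGCGG), E-box (CACGTG) and E2F (TTTNNCGC). Named genes were all 7, the highest 4 and lowest 3 of the 25 partner genes by level, those with most enhancers and any with a start-site peak in 1 condition. The work was done in Python 3.11.15 with scipy 1.17.1, numpy 2.4.6, matplotlib 3.10.9 and pandas 2.3.3. No test between groups was possible on pooled values. Alternatives were other distances, start sites, overlaps, q-value limits, lengths, motif windows and score scalings. Some genes of the cell type marker lists are not reported here.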

Additional observations from a re-analysis of the deposited data

How the results depend on the processing

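Under 31 of 48 alternatives a count stayed within 1.5 times the value given. The median ratio and the median level percentile, which have no spread between replicates, were counted as moved at any change. Within 25 kb there were 4 open and 6 closed enhancers. Within 100 kb there were 15 open and 29 closed ones, and 40 merged sites in place of 25. At 100 kb, peaks in the TSA list alone numbered 7 in place of 2, and those in the vehicle list alone 7 in place of 5. With a q-value under 1e-10, 4 open and 9 closed enhancers remained in the count. With scores divided by the median of shared peaks, the median ratio of TSA over vehicle was 1.09. The median level percentile of the 7 genes, 61.5, was 63.6 by longest transcript and 43.7 among genes at or above 0 log2 CPM. Motif counts depended on the window: in 300 bases around the summit, AP-1 was in 0 enhancers instead of 3, Sp1 in 0 instead of 4 and E2F in 1 instead of 2, while p53 pairs were in 3 with up to 2 mismatches in either window, a setting chosen after seeing the data. No paired analysis was possible because the values were pooled over libraries, and leaving out a replicate gave no value for the same reason. The alternative that used the fold alone to recover fragments gave no value. Depth per library is unknown.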

Other observations

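AP-1 consensus sites (TGANTCA) were in 3 of the 23 enhancers, the open CDKN1A enhancer, the open one at the PHLDA2 promoter near CDKN1C and the closed CDKN2D enhancer 27.1 kb upstream, against 18.1% of all open and 20.7% of all closed enhancers. GC content had a median of 62.3% in the 7 open enhancers, against 57.9% in all open ones, and 49.0% in the 16 closed enhancers, against 46.1% in all closed ones.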
